A study of Canis lupus familiaris with 8 samples.

Results

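The Sprouty and Spred genes encode intracellular inhibitors of receptor tyrosine kinase signalling. They were taken as the rows of the count table that carry the symbols SPRY1, SPRY2, SPRY4, SPRED1, SPRED2 and SPRED3. All 6 were present, among 37952 genes in the table, and all 6 passed the filter on low counts that left 14571 genes for testing.

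RNA came from the MDCK GII line of epithelial cells from dog kidney, grown as monolayers on collagen-coated elastic silicone membranes in medium with serum. Control wells (n = 4) were not strained. Stretch wells (n = 4) were held for 2 hours under a static strain of 18%, equal in both directions of the plane. The line was the only one used, and the labels call the wells of a group technical replicates spread over several devices, so p-values measure the spread between wells. The study asks how force on E-cadherin leads to EGFR and ERK signalling.

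When a growth factor such as an EGF or FGF family ligand binds its receptor, the receptor recruits adaptors that load RAS with GTP, and RAS then starts the RAF, MEK and ERK kinase cascade. Sprouty and Spred proteins share a cysteine-rich domain at the C-terminus that holds them at membranes, and both dampen the cascade between the receptor and RAF. Sprouty genes are known as transcriptional targets of the pathway they inhibit, which makes their mRNA a readout of recent ERK activity in many tissues, including the developing kidney, where Sprouty1 restrains GDNF and RET signalling. Spred proteins bring neurofibromin, the RAS-inactivating protein encoded by NF1, to the membrane.

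The wells held 27047358 to 32478887 counts each. The E-cadherin gene CDH1 measured 617 ± 24.7 CPM in control wells and 620 ± 20.0 CPM in stretch wells (SD, n = 4), and all 9 renal epithelial markers examined passed the filter. Of markers for other cells, COL1A2, DCN, LUM, PTPRC and CD3E had 0 counts in all 8 wells, and the summed level of the 5 fibroblast markers ranged from 1.65 to 4.11 CPM in control and 2.92 to 3.88 CPM in stretch wells. The 4 endothelial markers summed to 1.03 to 1.73 CPM in control and 0.79 to 1.61 CPM in stretch wells, and the 4 leukocyte markers to 4.03 to 6.09 and 5.28 to 5.83 CPM. CPM here is the normalised read count, scaled to a common library total with TMM factors. Earlier work on these counts found that replicates 1 and 2 of both groups stood apart from replicates 3 and 4, so values within each set are given beside the pooled ones.

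The 6 genes lie on 6 chromosomes, at positions that are the same in the table and in RefSeq's annotation of the assembly UU_Cfam_GSD_1.0. SPRY1 (chr19:17789162-17795661), SPRY2 (chr22:33464090-33469216) and SPRY4 (chr2:36348824-36362690) are compact genes on the minus strand, with 3, 2 and 2 separate exon blocks. SPRED1 (chr30:5875987-5996349, plus strand) and SPRED2 (chr10:66053709-66168347, minus strand) span 120.4 and 114.6 kb, with 7 and 9 exon blocks. SPRED3 (chr1:115434230-115444965, minus strand) spans 10.74 kb with 7 exon blocks. No exon of the 6 genes overlapped an exon of another gene in the table. The span of SPRED1 overlaps LOC119866863 on the opposite strand, outside its exons.

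In unstrained monolayers, SPRY2, SPRED2 and SPRED1 were the abundant members, SPRY1 was intermediate, and SPRED3 and SPRY4 were near the lower end of the tested genes. Levels are compared between genes per length, as RPKM (CPM per 1000 bases of exon). SPRY2, which encodes the Sprouty protein best known for binding the ubiquitin ligase CBL, had 12.8 ± 2.44 RPKM in control wells (SD, n = 4). SPRED2 had 11.5 ± 1.24 RPKM and SPRED1, the gene mutated in Legius syndrome in humans, had 9.04 ± 0.412 RPKM. The control ranges of SPRY2 (10.2 to 15.9 RPKM) and SPRED2 (9.66 to 12.3 RPKM) overlapped, so these neighbours did not differ beyond their spread, whereas every SPRED1 value (8.64 to 9.56 RPKM) was below every SPRED2 value.

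SPRY1, the family member with the clearest known role in kidney development, had 3.27 ± 0.607 RPKM, below every SPRED1 value. SPRED3 had 0.523 ± 0.145 RPKM and SPRY4 had 0.407 ± 0.246 RPKM, with overlapping ranges of 0.387 to 0.661 and 0.142 to 0.719 RPKM. By mean control RPKM, SPRY2 stood at the 59.25th percentile of the tested genes, SPRED2 at the 56.66th, SPRED1 at the 51.08th, SPRY1 at the 30.7th, SPRED3 at the 11.19th and SPRY4 at the 9.025th. SPRY3, a relative on the X chromosome that was not among the 6 genes, had 0 counts in all wells, which allows up to 3 counts or 0.0931 to 0.111 CPM per well.

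**Figure D1:**
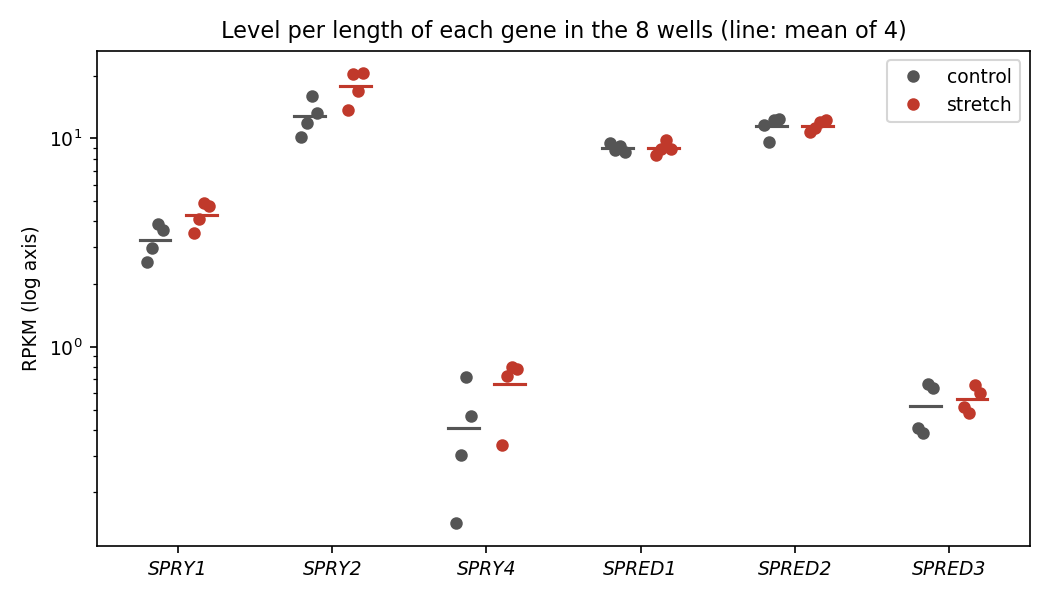
RPKM on a log axis for each gene in the 4 control (grey) and 4 stretch (red) wells, with a line at each mean. SPRED1 and SPRED2 lie between 8.30 and 12.3 RPKM, SPRY2 between 10.2 and 20.6 RPKM, SPRY1 between 2.56 and 4.89 RPKM, and SPRY4 and SPRED3 below 0.8 RPKM.

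In stretch wells the order at the top was clearer. SPRY2 had 17.9 ± 3.25 RPKM there (13.7 to 20.6 RPKM), above every SPRED2 value (10.7 to 12.3 RPKM), and SPRED2 was again above every SPRED1 value (8.30 to 9.82 RPKM). SPRY1 had 4.30 ± 0.637 RPKM. SPRY4 had 0.661 ± 0.219 RPKM and SPRED3 had 0.563 ± 0.0807 RPKM, again with overlapping ranges.

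Within the Sprouty genes, SPRY2 made up 77.8 ± 1.16% of the summed RPKM in control wells and 78.2 ± 2.53% in stretch wells (SD, n = 4). SPRY1 made up 19.9 ± 0.868% and 18.98 ± 2.33%, and SPRY4 the remaining 2.32 ± 1.01% and 2.83 ± 0.674%. Within the Spred genes, SPRED2 held 54.4 ± 2.47% and 54.7 ± 1.22%, SPRED1 43.1 ± 2.96% and 42.6 ± 1.20%, and SPRED3 2.47 ± 0.580% and 2.67 ± 0.249%. For each share, the difference between groups was smaller than the SD of the wells of either group, except SPRY1, where it was slightly larger than the control SD and smaller than the stretch SD.

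The comparison of stretch with control wells asks whether feedback inhibitors of the pathway were among the transcripts that differed after 2 hours of strain. The 3 Sprouty genes had higher mean counts in stretch wells, by 1.32-fold for SPRY1, 1.40-fold for SPRY2 and 1.62-fold for SPRY4 as ratios of group means, and each was higher in 4 of 4 same-numbered pairs. The 3 Spred genes had ratios of 0.994 (SPRED1), 1.005 (SPRED2) and 1.08 (SPRED3). No member passed an adjusted p of 0.05 in edgeR's quasi-likelihood test, either without the replicate number as a block, where 0% of the 14571 tested genes passed, or with it, where 0.7% did. A block of 2 levels (replicates 1 and 2, replicates 3 and 4) also left none of the 6 past the threshold, where 0.398% of tested genes passed in edgeR. With that block the adjusted p was 0.0694 for SPRY1, 0.470 for SPRY2 and 0.474 for SPRY4 (edgeR). In a lysate of all cells, a difference in the number of cells that express a gene and in the RNA per cell cannot be told apart.

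SPRY2 had the highest counts of the Sprouty genes and the smallest unadjusted p of the 6 genes without the block. Control replicates 1 to 4 had 22.6, 26.3, 35.4 and 29.3 CPM, and stretch replicates 1 to 4 had 30.5, 45.3, 37.5 and 45.6 CPM. Stretch replicate 1 lay below control replicate 3 and within the control range, while the other 3 stretch wells lay above all control wells. The raw counts behind these values ran from 615 to 1469.

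The log2 change of SPRY2 was 0.48 ± 0.16 (SE), with a 95% confidence interval from 0.13 to 0.84, an unadjusted p of 0.0128 and an adjusted p of 0.9995 (edgeR without the block). With the replicate block it was 0.48 ± 0.11, from 0.24 to 0.73, with an adjusted p of 0.125 in edgeR's test. A two-sided exact permutation test of its log2 CPM, 4 against 4 wells, gave p = 0.0571, where the smallest possible is 0.0286. The pairs were uneven: the stretch to control ratio was 1.35 for replicate 1, 1.72 for replicate 2, 1.06 for replicate 3 and 1.55 for replicate 4.

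SPRY1 was the most even of the Sprouty genes across pairs. Control replicates 1 to 4 had 6.79, 7.93, 10.3 and 9.67 CPM, and stretch replicates 1 to 4 had 9.31, 10.9, 13.0 and 12.6 CPM. Stretch replicate 1 was again the well that overlapped the controls, lying below control replicates 3 and 4. Within pairs the ratios were 1.37, 1.37, 1.26 and 1.30.

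The log2 change of SPRY1 was 0.40 ± 0.15 (SE), from 0.08 to 0.71, with an unadjusted p of 0.0182 and an adjusted p of 0.9995 (edgeR without the block). With the replicate block the change was 0.40 ± 0.09, from 0.21 to 0.60, and the adjusted p of 0.057 was the lowest of the 6 genes in edgeR's test. The exact permutation test gave p = 0.0857 (two-sided, 4 against 4 wells).

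SPRY4, whose transcript is often used as a sensitive marker of FGF and MAPK activity, was the scarcest and most variable Sprouty gene. Control replicates 1 to 4 had 0.698, 1.49, 3.52 and 2.27 CPM (19, 46, 104 and 73 counts). Stretch replicates 1 to 4 had 1.65, 3.55, 3.91 and 3.85 CPM (48, 96, 114 and 124 counts). Control wells spanned a 5.05-fold range and stretch wells a 2.37-fold range, and the groups overlapped through stretch replicate 1 and control replicates 3 and 4.

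The exact 95% Poisson interval of SPRY4, which covers counting error only, was 0.42 to 1.09 CPM for control replicate 1 and 2.88 to 4.27 CPM for control replicate 3. These intervals did not overlap, and the source of the spread was not tested. The ratios within pairs were 2.36, 2.38, 1.11 and 1.69. The log2 change was 0.69 ± 0.43 (SE), from -0.27 to 1.65, without the block (edgeR, adjusted p = 0.9995), and it was 0.42 without control replicate 1 and 1.10 without control replicate 3. With the replicate block it was 0.77 ± 0.20, from 0.34 to 1.21 (edgeR, adjusted p = 0.112). The exact permutation test gave p = 0.171 (two-sided).

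**Figure D2:**
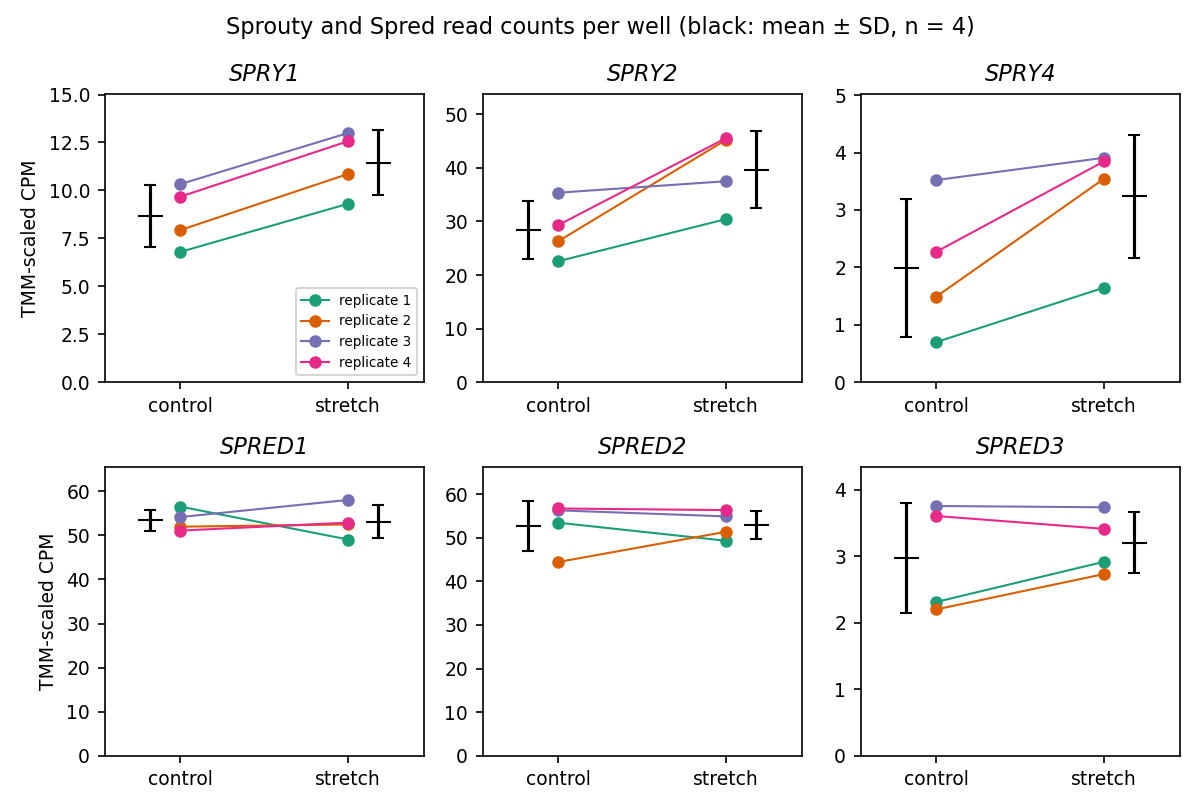
TMM-scaled CPM (linear axis from 0) of each gene in control and stretch wells, with same-numbered wells joined by a line and the mean ± SD of 4 wells in black. All lines of SPRY1, SPRY2 and SPRY4 slope upward, while replicate 3 is nearly flat for SPRY2 and SPRY4; the Spred lines go in both directions.

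Against the background of all genes, 8.45% of the 14571 tested genes were higher in 4 of 4 pairs, and all 3 Sprouty genes were. With the replicate block, 4.99% of tested genes had a higher estimate with an unadjusted p under 0.05, again including SPRY1, SPRY2 and SPRY4. Without the block the share was 2.22%, and SPRY1 and SPRY2 were among these genes while SPRY4 was not. None of the 6 members had every stretch well above every control well, a pattern seen in 1.3% of tested genes. The median log2 change of the 6 members was 0.25 without and 0.26 with the block, beside -0.0032 and -0.0022 over all tested genes.

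The Spred genes differed little between groups. SPRED1 had 56.5, 52.0, 54.2 and 51.1 CPM in control replicates 1 to 4 and 49.1, 52.5, 58.1 and 52.9 CPM in stretch replicates 1 to 4, so that the groups covered nearly the same range. Its log2 change was -0.0082 ± 0.063 (SE), with a 95% confidence interval from -0.14 to 0.13 (edgeR without the block, adjusted p = 0.9995). That interval corresponds to a ratio between 0.905 and 1.09.

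SPRED2 had 53.5, 44.4, 56.3 and 56.7 CPM in control replicates 1 to 4 and 49.3, 51.4, 54.9 and 56.3 CPM in stretch replicates 1 to 4. Only pair 2 was higher after stretch, and it held the lowest control well. The log2 change was 0.0074 ± 0.079, from -0.16 to 0.18, a ratio between 0.893 and 1.13 (edgeR without the block, adjusted p = 0.9995).

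SPRED3, the member that is known mainly from the nervous system, had 2.31, 2.20, 3.76 and 3.61 CPM in control replicates 1 to 4 and 2.92, 2.73, 3.74 and 3.41 CPM in stretch replicates 1 to 4. Replicates 3 and 4 exceeded replicates 1 and 2 in both groups, and pairs 1 and 2 were higher after stretch while pairs 3 and 4 were slightly lower. The log2 change was 0.11 ± 0.20, from -0.34 to 0.55 (edgeR without the block, adjusted p = 0.9995). At 63 to 116 counts per well, its interval allows a ratio from 0.792 to 1.46, which is much wider than for SPRED1 and SPRED2. Whether the changes of Sprouty genes differed from those of Spred genes was not tested.

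**Figure D3:**
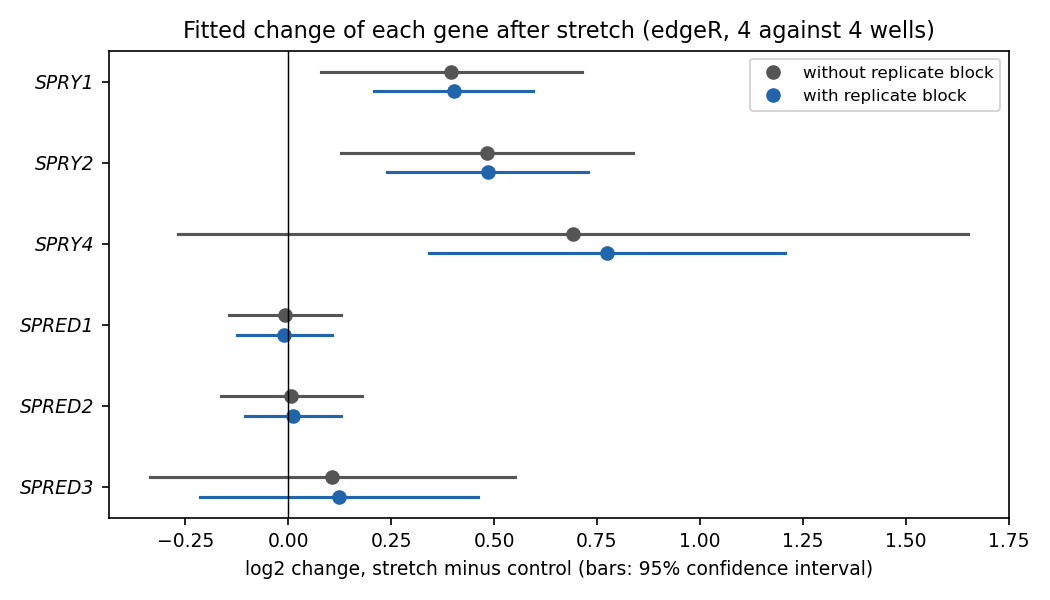
Fitted log2 change, stretch minus control, of each gene with its 95% confidence interval, without (grey) and with (blue) the replicate block. With the block the intervals of SPRY1, SPRY2 and SPRY4 lie above 0 (lower ends 0.21, 0.24 and 0.34) and those of the Spred genes span 0; none of the 6 has an adjusted p under 0.05 in either fit.

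Sprouty levels also differed between the sets of replicates. In control wells, mean CPM in replicates 3 and 4 was 1.36 times that in replicates 1 and 2 for SPRY1 (10.00 against 7.36 CPM), 1.32 times for SPRY2 (32.4 against 24.4 CPM) and 2.65 times for SPRY4 (2.90 against 1.09 CPM). In stretch wells the same ratios were 1.27, 1.10 and 1.49. SPRED3 showed ratios of 1.63 in control and 1.27 in stretch wells, SPRED2 1.15 and 1.10, and SPRED1 0.970 and 1.09. Over all tested genes the median log2 difference between these sets was -0.0026 in control and -0.0042 in stretch wells. TMM scaling holds this median near 0, so it does not show how much other single genes differed between the sets. What separated the sets is not given in the labels, and its part in the Sprouty values was not tested.

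Within replicates 1 and 2 alone the log2 changes after stretch were 0.45 for SPRY1, 0.62 for SPRY2 and 1.24 for SPRY4, and within replicates 3 and 4 alone they were 0.36, 0.37 and 0.45 (edgeR with the block). All 3 had an adjusted p under 0.05 within replicates 1 and 2 (0.0413, 2.6e-12 and 0.00712, edgeR), where 2.97% of 14656 tested genes passed, and none within replicates 3 and 4 (0.416, 0.399 and 0.702, edgeR), where 0.502% of 14750 passed. These fits rest on 2 pairs each, and without the block none of the 3 passed in either set (edgeR, adjusted p from 0.301 to 0.775), where 0.348% and 0.169% of tested genes passed. For SPRY2 within replicates 1 and 2, the SE was 0.080 with the block and 0.22 without it. The difference between the sets, tested as an interaction, was -0.10 ± 0.20 (SE) for SPRY1, -0.26 ± 0.32 for SPRY2 and -0.79 ± 0.53 for SPRY4. None had an adjusted p under 0.05 (edgeR, 0.987, 0.972 and 0.937), nor did any of the 14571 genes tested for it, of which 833 (5.72%) had an unadjusted p under 0.05.

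Pair 3 had the smallest ratio for each Sprouty gene, and control replicate 3 had the highest level of each among the controls. Without that pair and with the block, the log2 changes were 0.43 for SPRY1, 0.62 for SPRY2 and 1.04 for SPRY4, and all 3 passed (edgeR, adjusted p = 0.0463, 1.8e-06 and 0.0104). In that fit 186 of 14641 tested genes (1.27%) passed, against 102 with all pairs and 43, 67 and 74 without pairs 1, 2 and 4. Leaving out any other pair left none of the 6 genes past the threshold with the block.

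The Sprouty genes and SPRED3 were more variable among control wells than SPRED1 and SPRED2. In control wells the coefficient of variation was 18.6% for SPRY1, 19.0% for SPRY2, 60.3% for SPRY4 and 27.8% for SPRED3, beside 4.56% for SPRED1 and 10.8% for SPRED2, where the median over all tested genes was 9.007%. SPRY4 stood at the 98.9th percentile of tested genes by this measure, SPRED3 at the 88.78th, SPRY2 at the 79.76th and SPRY1 at the 79.01st. In stretch wells the values were 14.8% for SPRY1, 18.1% for SPRY2 and 33.1% for SPRY4, beside a median of 8.324%. There SPRED3 had 14.3%, SPRED1 6.98% and SPRED2 6.07%.

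Across the 8 wells, the log2 CPM of the Sprouty genes varied together, with Pearson r of 0.896 between SPRY1 and SPRY2, 0.947 between SPRY1 and SPRY4, and 0.911 between SPRY2 and SPRY4. SPRED1 showed little relation to any Sprouty gene (r from -0.0017 to 0.122), and SPRED2 had r from 0.358 to 0.480. SPRED3 had r from 0.544 (SPRY2) to 0.777 (SPRY1) with the Sprouty genes and 0.781 with SPRED2. These values describe 8 wells that share the groups and the replicate sets, and carry no p.

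The genes whose log2 CPM followed each member most closely were sought among tested genes of at least 5 CPM on average. For SPRY4 these included DNAJB1 (r = 0.986), a heat-shock co-chaperone gene, and DUSP6 (r = 0.984), which encodes a cytoplasmic phosphatase of ERK. For SPRY2 they were KLF6 (r = 0.965) and FOS (r = 0.961), both genes of transcription factors, and DUSP2 (r = 0.960), a gene of a nuclear MAP kinase phosphatase. For SPRY1 they included FAM110C (r = 0.983) and BIRC2 (r = 0.978), an inhibitor of apoptosis gene.

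The Spred genes were most like other transcripts with log2 changes near 0. These were HAGH, ZNF770 and SGPP1 for SPRED1 (r from 0.929 to 0.939), SETD4, LSG1 and LOC119877466 for SPRED2 (r from 0.964 to 0.981), and PRR3, MRPS10 and TRUB1 for SPRED3 (r from 0.988 to 0.997). Each likeness was picked as the highest among about 11062 genes over only 8 wells, so high values are given as a description.

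The proteins that Sprouty and Spred act on were encoded by transcripts that differed little. Of 26 genes from receptor to ERK, all were tested, 0 passed without the block and 1 passed with it, in the lower direction. With the block 0.7% of all tested genes passed. ERBB3, a receptor of the EGFR family, had 451 ± 39.9 CPM in control and 397 ± 30.3 CPM in stretch wells (SD, n = 4), or -0.18 ± 0.03 on the log2 scale (SE; adjusted p = 0.0126, edgeR, replicate block). A block of 2 levels, which joins replicates 1 with 2 and 3 with 4, gave an adjusted p of 0.0694 in edgeR. The list's median log2 change was -0.0026 with the block.

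None of the 11 genes for known partners and regulators of Sprouty and Spred proteins passed in either fit, and their median log2 change was 0.0033 with the block. NF1, the partner through which Spred proteins act on RAS, had a log2 change of -0.03 ± 0.05 (SE), and CBL, the ligase bound by Sprouty2, 0.03 ± 0.05 (edgeR with the block, adjusted p = 0.942 and 0.937; both named after their values were seen). The smallest unadjusted p belonged to MKNK1, a kinase downstream of ERK that phosphorylates Sprouty2, at 0.21 ± 0.08 on the log2 scale (adjusted p = 0.447, edgeR, replicate block), and the next to SIAH2, a ubiquitin ligase of Sprouty2, with 0.08 ± 0.07 (edgeR with the block, adjusted p = 0.854).

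Among 14 other genes linked to restraint of receptor or RAS signalling, of which 12 were tested, 4 rose with the replicate block and 0 fell, and 0 passed without it. Over all tested genes 0.7% passed with this block, and the list was chosen with earlier results of these data known. The 4 genes were ERRFI1, which encodes an inhibitor of the EGFR kinase, and DUSP5, DUSP6 and DUSP7, which encode phosphatases of ERK. DUSP6 had 79.8 ± 23.2 CPM in control and 113 ± 24.7 CPM in stretch wells (SD, n = 4), and its log2 change was 0.52 ± 0.07 (SE; adjusted p = 0.0061, edgeR, replicate block). DUSP7 had 55.8 ± 11.2 and 76.7 ± 10.7 CPM, and its log2 change was 0.47 ± 0.08 (adjusted p = 0.0337, edgeR, replicate block).

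DUSP5 had a log2 change of 0.41 ± 0.07 and ERRFI1 of 0.59 ± 0.07 (edgeR with the block, adjusted p = 0.0297 and 0.00146). None of these 4 genes passed when the block had 2 levels, with an adjusted p from 0.0693 to 0.793 in edgeR. The log2 changes of SPRY1 and SPRY2 with the block were 0.40 and 0.48, and the standard errors of these 4 genes with the block (0.07 to 0.08) were smaller than those of SPRY1 (0.09), SPRY2 (0.11) and SPRY4 (0.20). The list also holds genes of RAS-inactivating proteins and FLRT3, a membrane protein that binds FGF receptors and is no inhibitor. FLRT3 had a log2 change of 0.29 ± 0.07 and missed the threshold (adjusted p = 0.0775, edgeR, replicate block; named after its value was seen).

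All 12 transcriptional outputs of ERK on the list were tested, and 1 passed with the block and 0 without, beside 0.7% and 0% of all tested genes. EGR1, an immediate-early transcription factor gene, rose from 223 ± 23.7 to 299 ± 43.9 CPM. Every stretch well was above every control well, as for 1.3% of tested genes. Its log2 change was 0.42 ± 0.05 (SE, edgeR, adjusted p = 0.00169 with the replicate block, 0.0668 for 2 levels). Estimates were above 0 for 9 of the 12 genes, and the list's median log2 change was 0.28 with the block. The ETS factor genes ETV1, ETV4 and ETV5, which are often induced with Sprouty genes by FGF, were the only ones with estimates below 0. Their log2 changes of -0.13, -0.06 and -0.11 missed the threshold (adjusted p = 0.835, 0.957 and 0.891, edgeR, replicate block). The largest estimates, 0.90 for FOSL1, 0.70 for FOS and 0.59 for PHLDA1, also missed it (adjusted p = 0.338, 0.262 and 0.483, edgeR, replicate block). The ETS factor genes, FOSL1, FOS and PHLDA1 were named here after their values were seen.

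**Figure D4:**
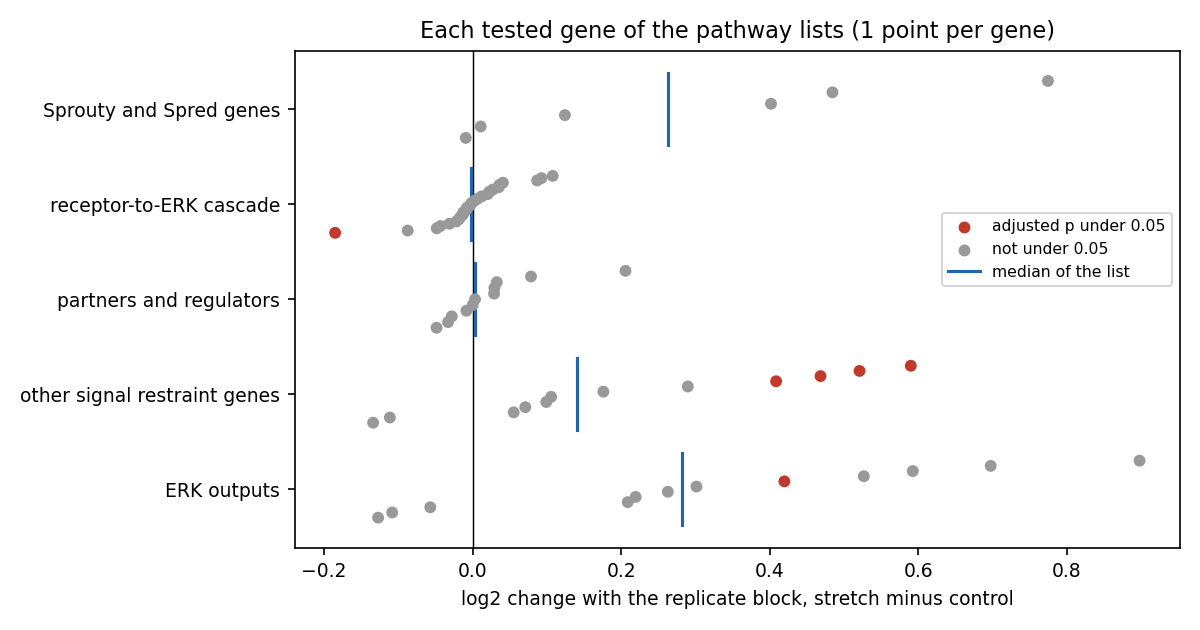
Log2 change with the replicate block, stretch minus control, of every tested gene in the 5 groups of genes (1 point per gene, red where the adjusted p is under 0.05), with a blue line at each median. The cascade and partner lists cluster at 0, while SPRY1, SPRY2 and SPRY4 lie at 0.40, 0.48 and 0.77, beside 0.41 to 0.59 for the 3 phosphatase genes and ERRFI1.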

How the data were processed

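Polyadenylated RNA of 8 wells was sequenced from stranded TruSeq libraries, per the labels. The table deposited by the authors gives raw exon counts for each gene. Trim Galore 0.6.5, FastQC 0.11.8, STAR 2.7.3a and featureCounts of Subread were used, per the submitters' processing notes, which give no order or settings. The strand setting and the handling of multi-mapping reads are not given in the sources used here. The build is not named there either, though the gene positions match the RefSeq assembly named below. The exon lengths of the deposited table (a column in bases, other than a measurement) were used for RPKM.

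Columns were matched to samples by library name, and 0 columns belonged to no sample. Of the symbols, 37291 matched RefSeq's UU_Cfam_GSD_1.0 table, all with identical start and end. Wells of 1 group differed by more than sampling noise (chi-square per degree of freedom 5.555 to 26.83), so all were kept.

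Counts were tested in R 4.3.3 with edgeR 4.0.16 (glmQLFit, robust; glmQLFTest, two-sided), TMM factors and filterByExpr defaults (minimum count 10, minimum total 15). P-values were adjusted over all tested genes by the Benjamini-Hochberg method (threshold 0.05). The standard error is the log2 change divided by the square root of F. The replicate number was added as a block in a further fit. Same-numbered wells deviated together from their group means (correlations across genes of 0.328, 0.108, 0.182 and 0.178). Differently numbered wells of a set did so too: control replicate 2 with stretch replicate 1 gave 0.243. Control replicate 3 with stretch replicate 4 gave 0.216, control 4 with stretch 3 0.189, and control 1 with stretch 2 0.070. These correlations show the 2 sets and do not single out pairs by number within a set. The labels do not tie a number to a device. Log2 CPM used a prior count of 2.

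The named genes were all 6 members, list genes past the threshold in the fit without or with the block, otherwise the 2 of each list with the smallest p, and the 3 genes most correlated with each member, of which 2 are not reported here. Members and lists were chosen with earlier results of these data known. DESeq2 1.42.0 and limma 3.58.1 (voom) were alternatives. The code was run on simulated counts drawn with pair effects by replicate number and the same dispersion for all genes. That run does not bear on whether the replicate block suits these wells. Figures used matplotlib 3.10.9. No sequences are printed.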

Additional observations from a re-analysis of the deposited data

Results flagged for a closer look

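In stretch replicate 1, SPRY4 had 1.65 CPM, while the other stretch wells had 3.55 to 3.91 CPM. The gap to the nearest well was 0.839 of the range of the group, above Dixon's 95% critical value of 0.829 for 4 wells. Of the 12 groups of 4 wells examined (6 genes in 2 groups), chance gives about 0.6 such gaps. The same-numbered control well also had the lowest SPRY4 level of its group, 0.698 CPM, and the total count of stretch replicate 1 was 29065441, neither the lowest nor the highest of the 8 wells. Without that well the log2 change of SPRY4 was 0.91 (edgeR without the block, adjusted p = 0.9987).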

How the results depend on the processing

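Of the 6 genes, 0 passed without a block under edgeR, DESeq2, limma-voom, each scaling, each count filter and each well left out. Over the whole table, the number of genes past the threshold was 0 in edgeR without a block (579 at an unadjusted p under 0.05), 40 with the DESeq2 Wald test, 11 with no filter on low counts, and 0 to 12 with a well left out. The replicate block gave 102, and a block of 2 levels 58. Combined with the replicate block, DESeq2 size factors gave 105, the DESeq2 Wald test 145, limma-voom 100 and no filter on low counts 448, and leaving out pairs 1 to 4 gave 43, 67, 186 and 74. With the replicate block and no filter, 3 of the 6 genes passed, SPRY1, SPRY2 and SPRY4 (log2 changes of 0.40, 0.49 and 0.77, edgeR, adjusted p = 0.00334, 8.9e-13 and 0.00127). The SE of SPRY2 in that fit was 0.061, beside 0.105 with the filter and 0.158 in DESeq2 with the block. Its pair log2 differences ran from 0.085 to 0.781, so the small p does not reflect the spread between pairs. The same 3 genes passed without pair 3 (0.43, 0.62 and 1.04) and within replicates 1 and 2 alone with the block (0.45, 0.62 and 1.24). The cause was not tested. The replicate block changed no other call among the 6 genes in edgeR or limma-voom; the DESeq2 Wald test with the block gave no adjusted p for SPRY1, SPRY4 and SPRED3 and did not call the other 3. With a well left out and no block, log2 changes ranged from 0.30 to 0.49 for SPRY1, 0.39 to 0.61 for SPRY2, 0.42 to 1.10 for SPRY4, -0.052 to 0.031 for SPRED1, -0.063 to 0.046 for SPRED2 and -0.010 to 0.24 for SPRED3. SPRY1, SPRY2 and SPRY4 stayed above 0 under all 29 alternatives. The Spred estimates, none past the threshold, changed sign under some: SPRED1 was 0.055 without pair 1 and SPRED2 -0.050 without pair 2 (replicate block), and in replicates 3 and 4 alone SPRED1 was 0.081 with and 0.082 without the block, SPRED2 -0.017 and SPRED3 -0.038 in both. The fits within a set without the block were chosen after seeing the data. Depth limits SPRY4 and SPRED3, at 19 to 124 and 63 to 116 counts per well. TPM in place of RPKM gave higher values in the same order.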
